A study of Mus musculus with 6 samples.

Results

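The genes described here are 9 widely used targets of the transcriptional coactivators YAP and TAZ that lie outside the CCN family: Ankrd1, Amotl2, Axl, Crim1, Nt5e, Arhgef17, Asap1, Ajuba and Ptpn14. They were taken by symbol from the table of 45777 listed genes, and each symbol matched 1 row. All 9 passed the filter on low counts, which left 17210 genes. The samples were 6 tumors grown from B16F10, a mouse melanoma cell line, 3 in the hind footpad and 3 in flank skin. The question was whether the mechanical load on the footpad is reflected in gene expression. The labels give Foxn1-/- hosts aged 8 weeks for all 6 tumors, so the sites share the host genotype, whereas the paper also grafted B16F10 cells into C57BL/6J mice and its text does not name the host of the sequenced tumors. Mice without Foxn1 lack a functional thymus and therefore most T cells, while they keep macrophages, neutrophils and fibroblasts. Footpad and flank values are each from 3 libraries of total RNA, 1 per tumor, and the paper counts 3 mice for its expression data. It describes implantation at both sites of the same animal for other B16F10 experiments, and the labels do not say whether that holds for these tumors.

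YAP and TAZ shuttle between cytoplasm and nucleus. Kinases of the Hippo pathway retain them in the cytoplasm, and cell spreading, stiff matrix and actin tension release them to the nucleus, where they act on genes through the DNA-binding TEAD proteins. In melanoma the pathway is known for its link to invasive, dedifferentiated states. The 9 genes have different roles. Ankrd1 is a nuclear cofactor of heart and skeletal muscle that is also a standard readout of YAP activity. Amotl2, Ptpn14 and Ajuba encode proteins that act back on the pathway, Axl, Crim1 and Nt5e encode cell-surface proteins, and Arhgef17 and Asap1 encode regulators of small GTPases.

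Bases near the start of each gene are shown first, as 1 place where TEAD proteins, through which YAP and TAZ act, could bind. Sites farther from the start were not searched. RefSeq windows of 250 bases on GRCm38.p6 were used for 7 of the 9 genes, all but Arhgef17 and Asap1, each lying before the start of 1 transcript. They were searched on both strands for the TEAD element GGAATG, which reads CATTCC on the other strand. The element was found in 6 of the 7 windows, and in 12.6% of the 32851 windows of the same length over all genes. Ankrd1 and Ajuba held 2 copies each, and 1.02% of all windows held 2 or more. The AP-1 element TGANTCA, which can share end bases with the TEAD element, was in 0 of the 7 windows and in 6.75% of all. The 30 bases around each element follow, 5′ to 3′ on the strand of the gene, with the element in capitals.
Ankrd1, upper copy, chr19:36120037-36120066, minus strand: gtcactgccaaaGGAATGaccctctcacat
Ankrd1, lower copy, chr19:36119950-36119979, minus strand: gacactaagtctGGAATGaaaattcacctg
Amotl2, chr9:102717727-102717756, plus strand: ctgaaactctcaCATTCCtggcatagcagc
Axl, chr7:25788949-25788978, minus strand: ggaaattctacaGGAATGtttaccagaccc
Crim1, chr17:78200157-78200186, plus strand: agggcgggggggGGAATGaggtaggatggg
Ptpn14, chr1:189728110-189728139, plus strand: cctccccggacgCATTCCtggcccgcccag
The window of Ajuba, chr14:54577662-54577911 on the minus strand, is shown whole because its copies lie close together, with their first bases 186 and 164 bases before the start.
Ajuba: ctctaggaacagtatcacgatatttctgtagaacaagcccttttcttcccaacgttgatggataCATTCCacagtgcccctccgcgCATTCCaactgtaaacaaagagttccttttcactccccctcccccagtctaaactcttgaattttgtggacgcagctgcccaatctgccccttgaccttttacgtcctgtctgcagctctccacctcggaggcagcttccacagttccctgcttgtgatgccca
The window of Nt5e held neither element. The window of Amotl2 and its element lie inside the span of the gene, which has an earlier start, and 191 bases of the Axl window, 52 of the Ptpn14 window and 15 of the Crim1 window do as well, although their elements lie outside it. In GENCODE M21, all 250 bases of the Ankrd1 and Nt5e windows and 136 of the Amotl2 window belong to exons annotated to these genes. The matches describe letters near 1 annotated start per gene, and whether TEAD proteins bind there in these tumors was not measured.

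Of the 9 targets, 1 was higher in footpad tumors: Arhgef17, by 2.996-fold. A gene was called where edgeR gave an adjusted p under 0.05 together with at least a 2-fold difference. Of all genes tested, 3.76% were called, 2.89% as higher in the footpad. DESeq2 called 2 of the 9 targets and 8.75% of all genes. The fitted log2 fold change was above 0 for 9 of 9 targets and for 49.7% of all genes. Its median was 0.65 over the 9 targets and 0.00 over all genes, with the highest of the 6 tumors in the footpad for 9 of 9 targets and for 48.9% of genes. In 4 of 9, Axl, Arhgef17, Asap1 and Ptpn14, all footpad tumors lay above all flank tumors, as in 17.5% of all genes, and 32.5% of genes did not overlap in either direction. At an unadjusted p under 0.05 from edgeR the number was 4 of 9. Of all genes, 25.3% were under it in either direction, and 14.8% were under it and higher in footpad tumors. The targets were chosen with earlier results of these tumors known, and these counts are given as a description.

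**Figure D1:**
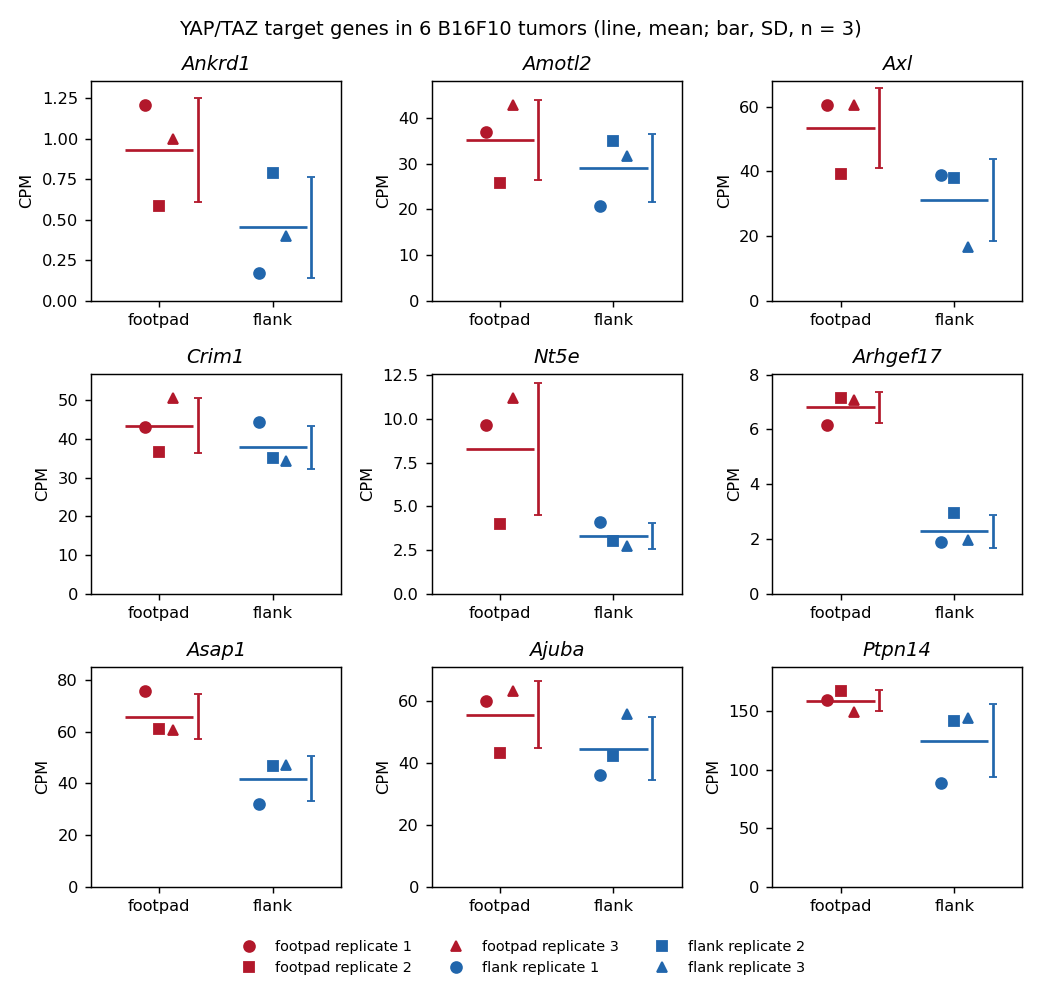
Level of each of the 9 targets in CPM (linear axes from 0), in 3 footpad (red) and 3 flank (blue) tumors, with the marker shape giving the replicate, the line the mean and the bar the SD. Arhgef17 is at 6.15 CPM or more in footpad tumors and at 2.96 CPM or less in flank tumors, while the sites overlap for Ankrd1, Amotl2, Crim1, Nt5e and Ajuba.

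The regulators of small GTPases showed the clearest separation. Arhgef17, a guanine nucleotide exchange factor (chromosome 7, 100869746 to 100932161), measured 6.15, 7.16 and 7.08 CPM in footpad replicates 1, 2 and 3, where CPM are reads of a gene scaled to the adjusted library size. In flank replicates 1, 2 and 3 it was at 1.90, 2.96 and 1.95 CPM. The lowest footpad tumor was above the highest flank tumor, by more than the spread within either site (6.80 ± 0.562 against 2.27 ± 0.599 CPM, SD, n = 3). Its log2 fold change was 1.58 ± 0.27 (SE), with an edgeR adjusted p of 0.0271. The call was lost without some single tumors. The adjusted p from edgeR was 0.0886 without footpad replicate 1 and 0.124 without footpad replicate 3. It was 0.0574 without flank replicate 1 and 0.104 without flank replicate 3. Without these tumors, in the same order, edgeR called 31, 0, 308 and 46 genes over the whole table, against 647 with all 6. The log2 fold change of Arhgef17 stayed between 1.47 and 1.82 when single tumors were left out. Asap1, an Arf GTPase-activating protein of focal adhesions (chromosome 15, 64086840 to 64382941), was at 76.0, 61.2 and 60.6 CPM in footpad tumors and at 31.9, 46.7 and 47.1 CPM in flank tumors. The sites did not overlap, with flank replicate 1 set apart as the lowest. Its log2 fold change was 0.65 ± 0.19 (SE), with an edgeR adjusted p of 0.0849. DESeq2 gave 0.0200, the lowest among the alternatives, and the highest was 0.248. The difference was below 2-fold in each.

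Among the cell-surface targets, Nt5e showed the largest difference, with a wide spread in the footpad. Nt5e is the ectonucleotidase CD73, which makes adenosine outside the cell (chromosome 9, 88327609 to 88372089). Footpad replicates 1, 2 and 3 held 9.63, 4.01 and 11.2 CPM, and flank replicates 1, 2 and 3 held 4.12, 3.01 and 2.75 CPM. Footpad replicates 1 and 3 stood above every flank tumor, and footpad replicate 2 lay just below flank replicate 1. The log2 fold change was 1.33 (standard error 0.40), with an adjusted p of 0.0963 from edgeR, and it passed both thresholds with DESeq2 (adjusted p = 0.0124) and without footpad replicate 2 (log2 fold change 1.66, edgeR adjusted p = 0.0278). The alternatives gave an adjusted p from 0.0124 to 0.275.

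Axl, a receptor tyrosine kinase that binds Gas6 (chromosome 7, 25756500 to 25788924), was at 60.7, 39.3 and 60.7 CPM in footpad tumors and at 38.8, 37.9 and 16.5 CPM in flank tumors. The sites did not overlap, but footpad replicate 2 exceeded flank replicate 1 by less than 1 CPM. Its log2 fold change was 0.78 ± 0.33 (SE), with an edgeR adjusted p of 0.196. Crim1, a transmembrane protein that binds growth factors of the BMP family (chromosome 17, 78200233 to 78376592), had the smallest difference of the 9. It was at 43.2, 36.5 and 50.7 CPM in footpad tumors and at 44.3, 35.03 and 34.3 CPM in flank tumors, where flank replicate 1 lay above 2 of the 3 footpad tumors. Its log2 fold change was 0.20 ± 0.17 (SE), with an edgeR adjusted p of 0.505.

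None of the 3 targets that act back on the pathway passed edgeR's test. At an unadjusted p under 0.05 the number was also 0 of 3, against 25.3% of all genes tested. Amotl2, an angiomotin that holds YAP in the cytoplasm (chromosome 9, 102717091 to 102733418), was at 36.9, 25.8 and 43.0 CPM in footpad tumors and at 20.7, 34.9 and 31.7 CPM in flank tumors. Ajuba, a LIM protein that inhibits the LATS kinases (chromosome 14, 54567469 to 54577661), was at 60.1, 43.2 and 63.3 CPM against 35.9, 42.1 and 55.8 CPM. For both genes footpad replicate 2 lay within the range of the flank tumors. Ptpn14, a tyrosine phosphatase that binds YAP (chromosome 1, 189728216 to 189876695), was at 159, 168 and 150 CPM in footpad tumors and at 88.8, 142 and 144 CPM in flank tumors, with the gap between the sites smaller than the spread within the flank (SD 31.1 CPM). The log2 fold changes of Amotl2, Ajuba and Ptpn14 were 0.28, 0.32 and 0.35, with standard errors of 0.25, 0.21 and 0.20 and adjusted p values of 0.531, 0.392 and 0.315 from edgeR. DESeq2 called none of them either.

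Ankrd1 was the least expressed target (chromosome 19, 36111965 to 36119844). Its counts were 54, 40 and 49 reads in footpad tumors and 10, 46 and 25 reads in flank tumors, or 1.21, 0.583 and 1.00 CPM against 0.172, 0.787 and 0.399 CPM. Flank replicate 2 lay above footpad replicate 2, and their exact 95% Poisson intervals, which cover counting error only, overlapped (0.576 to 1.05 and 0.417 to 0.794 CPM). Flank replicate 1, at 0.0827 to 0.317 CPM by the same interval, was below all footpad tumors beyond counting error. The log2 fold change was 1.03 with a standard error of 0.61 (adjusted p = 0.329 from edgeR and 0.371 from DESeq2), and without single tumors it ranged from 0.64 to 1.68. Markers of skeletal muscle, a tissue that makes Ankrd1, were detected. The sum of the 8 markers was 1006 CPM for footpad replicate 2 and ranged from 11.2 to 191 CPM over the 5 remaining tumors, with 2 of the 8, Myh4 and Tnnt3, at 0 in a tumor. The tumor with the highest muscle sum had the lowest Ankrd1 of the 3 footpad tumors, whereas in the flank the sums of 191, 32.6 and 11.2 CPM in replicates 2, 3 and 1 followed the order of Ankrd1. After subtraction of the site means, r between Ankrd1 and the muscle score was 0.27, and the part of muscle in the level of Ankrd1 was not tested.

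**Figure D2:**
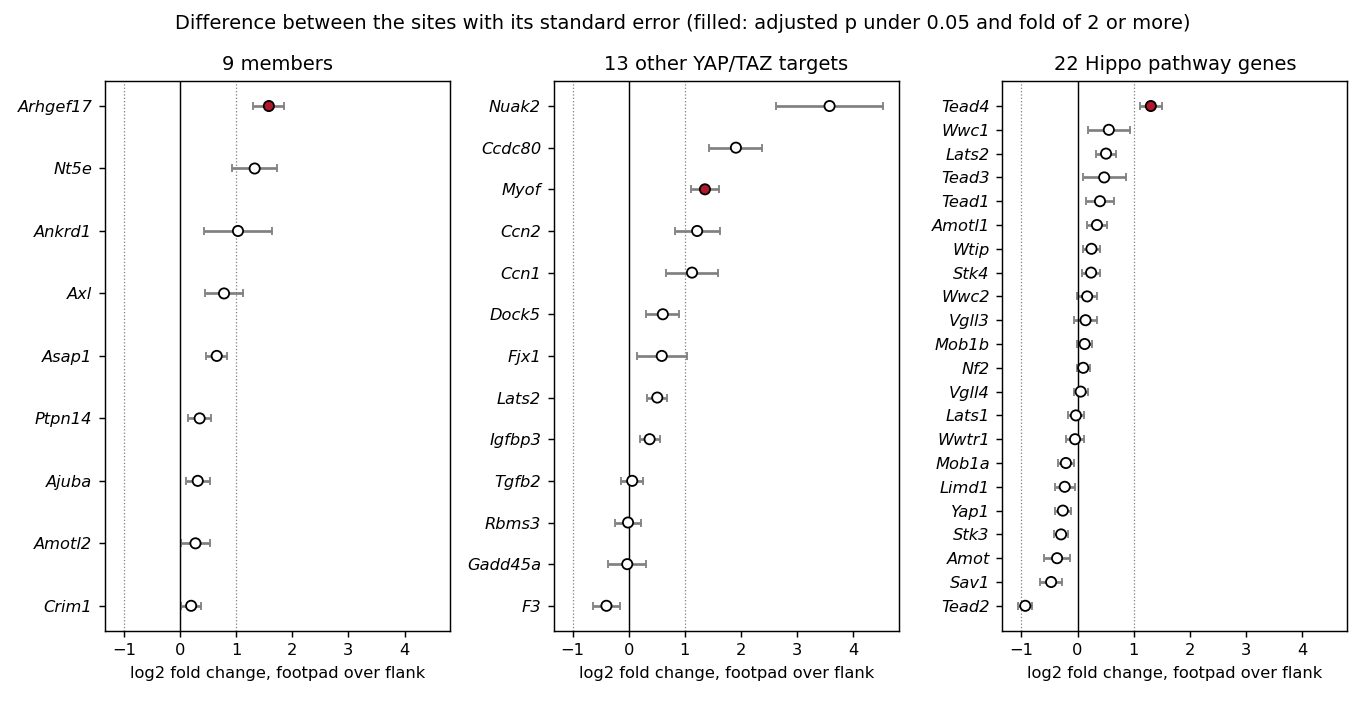
Log2 fold change of footpad over flank tumors with its standard error from edgeR (horizontal axis) for the 9 targets, 13 other YAP/TAZ targets and 22 Hippo pathway genes, filled where both thresholds were passed, with dotted lines at a fold of 2. All 9 targets lie to the right of 0, and the filled points are Arhgef17, Myof and Tead4.

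Levels between genes were compared with the FPKM values, which take transcript length into account. In footpad tumors the order of mean FPKM was Ajuba (14.0), Ptpn14 (13.2), Axl (9.82), Asap1 (9.44), Amotl2 (7.40), Crim1 (6.55), Nt5e (2.04), Arhgef17 (0.592) and Ankrd1 (0.456). Ajuba and Ptpn14 did not differ beyond their SD of 2.44 and 1.28, nor did Axl and Asap1 (SD 1.58 and 0.603) or Amotl2 and Crim1 (SD 1.79 and 1.14). The means of Arhgef17 and Ankrd1 (SD 0.0883 and 0.134) lay about 1 SD of Ankrd1 apart. In flank tumors Ajuba (11.4) and Ptpn14 (10.53) again led. Amotl2 (6.26), Asap1 (6.11), Crim1 (5.66) and Axl (5.58) followed and lay within the SD of Axl (2.30) of one another. Nt5e (0.810), Ankrd1 (0.234) and Arhgef17 (0.1997) came last. The gene that passed the test was therefore among the 2 with the lowest level per length at both sites, and the genes with the most RNA per length, Ajuba and Ptpn14, had fold changes of 1.24 and 1.27.

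Within the flank the 9 targets had 3 orders. Ankrd1, Amotl2, Arhgef17, Asap1, Ajuba and Ptpn14 had their lowest level of all 6 tumors in flank replicate 1, as did 24.5% of all genes tested. Of these, Ankrd1, Amotl2 and Arhgef17 ran from replicate 2 over replicate 3 to replicate 1 (19.2% of genes), and Asap1, Ajuba and Ptpn14 from replicate 3 over replicate 2 to replicate 1 (20.3% of genes). Axl, Crim1 and Nt5e had replicate 1 as the highest and replicate 3 as the lowest, which 20.1% of genes showed. Footpad replicate 2 was the lowest footpad tumor for 6 of 9 targets and for 37.2% of genes. After the mean of each site was subtracted, Crim1 and Nt5e moved together over the 6 tumors (Pearson's r of log2 CPM 0.89), as did Ankrd1 and Amotl2 (0.89) and Asap1 and Ptpn14 (0.86), whereas Crim1 and Ptpn14 moved in opposite directions (-0.79). These coefficients describe 6 tumors, of which 3 share each mean, and carry no test.

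Each target was next set beside stroma-linked genes. Dcn, which encodes the matrix proteoglycan decorin, measured 33.6, 42.3 and 53.8 CPM in the footpad (replicates 1 to 3) and 1.55, 8.02 and 1.42 CPM in the flank (replicates 1 to 3). Pdgfra, a growth factor receptor of fibroblasts, was at 33.7, 26.7 and 43.7 CPM and at 0.621, 10.4 and 2.99 CPM. For both, the lowest footpad value exceeded the highest flank value, with flank replicate 2 the highest of its site. The fibroblast score, the mean log2 CPM of 12 markers, was 2.87, 2.94 and 3.32 in footpad tumors and -0.86, 1.11 and -0.84 in flank tumors, a difference of 3.24 on the log2 scale (two-sided exact permutation p = 0.1, the smallest that 3 tumors against 3 allow). The summed markers ranged from 200.01 to 258 CPM in the footpad and from 48.9 to 69.8 CPM in the flank, and 1 of the 12, Dpt, was at 0 in a tumor. Much of the flank sums was Fbln1, at 40.1, 32.2 and 49.2 CPM in flank replicates 1 to 3. Its sites overlapped, with 45.3, 54.9 and 49.4 CPM in footpad replicates 1 to 3 (log2 fold change 0.30). In bulk RNA, fewer cells of a type and less RNA per cell cannot be told apart.

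No target differed between the sites as much as the fibroblast score did. On the log2 CPM scale the difference of a target minus that of the score ranged from -1.64 for Arhgef17 to -3.04 for Crim1, with -2.02 for Nt5e, -2.05 for Ankrd1 and -2.38 for Axl. For 9 of 9 targets, the level relative to the score was lower in every footpad tumor than in any flank tumor (two-sided exact permutation p = 0.1 for each, 0.1 after Benjamini-Hochberg adjustment over the 9, the smallest this design allows). The same was found for 89.4% of all genes tested, so the count is not particular to the targets. It was 9 of 9 also when Dcn or Pdgfra alone replaced the score.

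Because the sites form separate clusters in the fibroblast score, no coefficient between a target and the score was computed over the pooled tumors, and 3 tumors per site are too few to test the relation within a site. After subtraction of the site means, Arhgef17 went with the stroma most closely: its Pearson's r over the 6 tumors was 0.96 with the fibroblast score, 0.98 with Dcn and 0.80 with Pdgfra. Its order within the flank was that of the score. Without single tumors r stayed between 0.56 and 0.996, with the lowest value without flank replicate 2. The score spread more in the flank (SD 1.13) than in the footpad (SD 0.24), with flank replicate 2 apart at 1.11. The coefficients with the score therefore rest mostly on the flank tumors, and on flank replicate 2 among them. Within the footpad the orders differed, since Arhgef17 was highest in replicate 2 and the score in replicate 3. Ankrd1 (0.75) and Amotl2 (0.55) also had the flank order of the score, with replicate 2 first and replicate 1 last, but footpad replicate 2 was their lowest footpad tumor. For Ankrd1, r ranged from 0.12 to 0.93 over the alternatives. Axl (0.44), Ptpn14 (0.43) and Asap1 (0.35) gave lower values, which fell to -0.01 for Axl with Pdgfra, to -0.34 for Ptpn14 without flank replicate 1 and to -0.32 for Asap1 without flank replicate 2. Nt5e (-0.01), Ajuba (-0.04) and Crim1 (-0.16) had values at or below 0, which turned to 0.45, 0.37 and 0.58 without flank replicate 2, and Ajuba reached 0.41 with Pdgfra and 0.46 without flank replicate 3. Thus 3 of 9 targets, Arhgef17, Ankrd1 and Amotl2, kept a positive r under every alternative run, also with Dcn or Pdgfra in place of the score. Of these, only Arhgef17 separated the sites. The share of all genes that would keep a positive r was not computed, so the count describes the 9 targets only. The flank order that these 3 had in common with the score held for 19.2% of all genes tested.

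**Figure D3:**
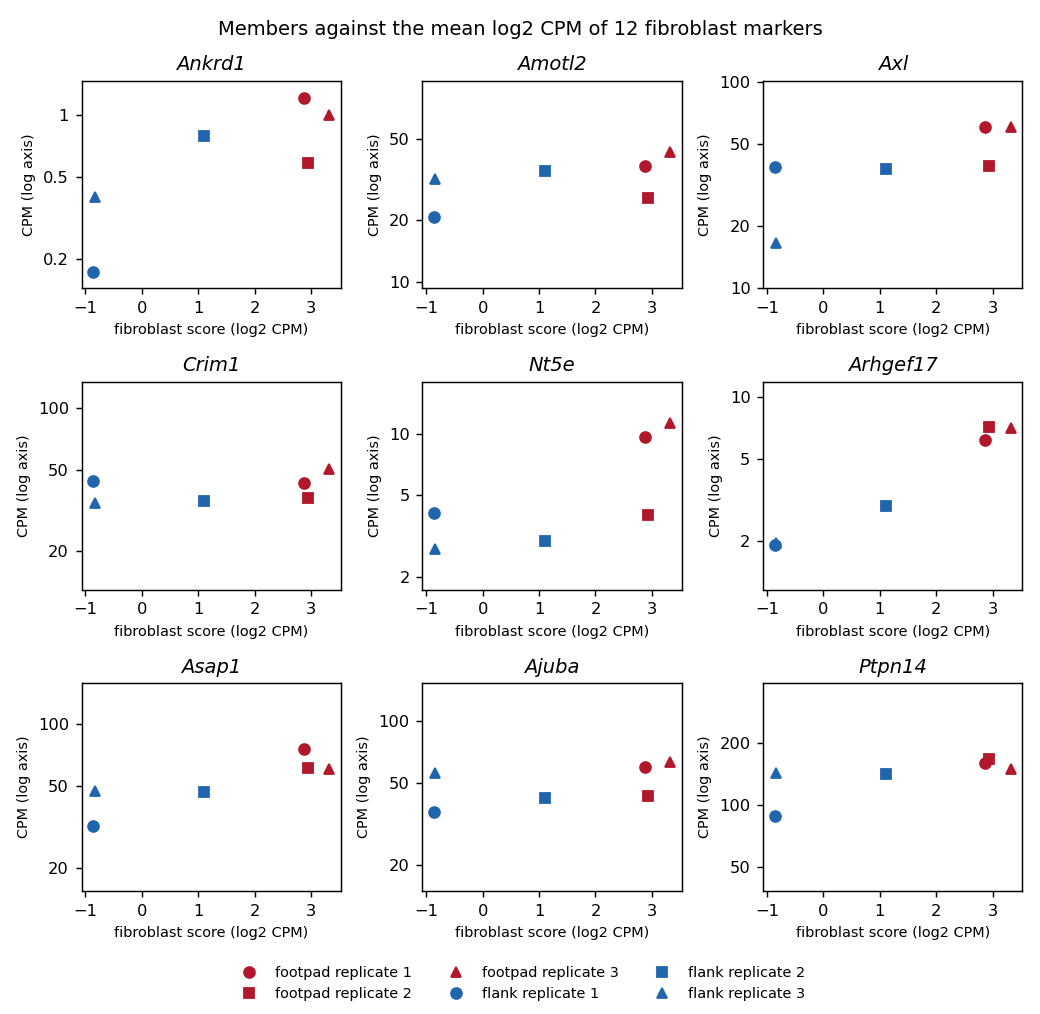
CPM of each target (vertical log axis, the same width of range in each panel) against the fibroblast score, the mean log2 CPM of 12 markers, for 3 footpad (red) and 3 flank (blue) tumors with shapes for replicates. Arhgef17 lies higher in every footpad tumor than in any flank tumor, and within the footpad its order is not that of the score. It is lowest, at 1.90 CPM, in flank replicate 1, whose marker nearly covers that of flank replicate 3. Crim1 is as high in flank replicate 1 as in footpad tumors.

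Markers of other cells were compared in the same way. The list whose score had the highest site-centred r was the macrophage list for Ankrd1 (0.87), Ptpn14 (0.86) and Asap1 (0.74), the endothelial list for Amotl2 (0.89) and Ajuba (0.86), and the neutrophil list for Nt5e (0.87) and Crim1 (0.64). For Axl it was the Schwann cell list (0.93), and for Arhgef17 the fibroblast list (0.96). The macrophage and adipocyte lists gave 0.83 each for Arhgef17, with 5 of the 6 adipocyte markers at 0 in a tumor. The 8 macrophage markers summed to between 230 and 258 CPM in footpad tumors and to 32.6, 170 and 72.1 CPM in flank replicates 1, 2 and 3, with none at 0 in any tumor. The 6 neutrophil markers summed to 333, 6.29 and 163 CPM in footpad replicates 1, 2 and 3, the same tumor being low as for Nt5e, and to between 4.22 and 28.1 CPM in the flank, with Ly6g at 0 in a tumor. Endothelial markers summed to between 284 and 306 CPM in the footpad and between 156 and 190 CPM in the flank. Schwann cell markers, most of them Mbp at 188 to 275 CPM, summed to between 222 and 295 CPM over the 6 tumors. The keratinocyte sum was 581 CPM for footpad replicate 2 and from 4.83 to 28.4 CPM elsewhere, and their score ran against Nt5e (-0.98) and Crim1 (-0.96), as the mural cell score did against Ajuba (-0.98). The part of these cells in the levels of the targets was not tested. The 8 melanocyte markers were present in every tumor, with sums from 10067 to 18637 CPM in the footpad and from 14814 to 25513 CPM in the flank, highest in flank replicate 1. The melanocyte score had a negative r with 9 of 9 targets, from -0.83 for Ankrd1 and -0.80 for Amotl2 to -0.13 for Crim1. The share of all genes with a negative r was not computed, so this count is not a trait of the targets. Flank replicate 1 was the lowest of the 6 tumors for 24.5% of all genes tested.

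**Figure D4:**
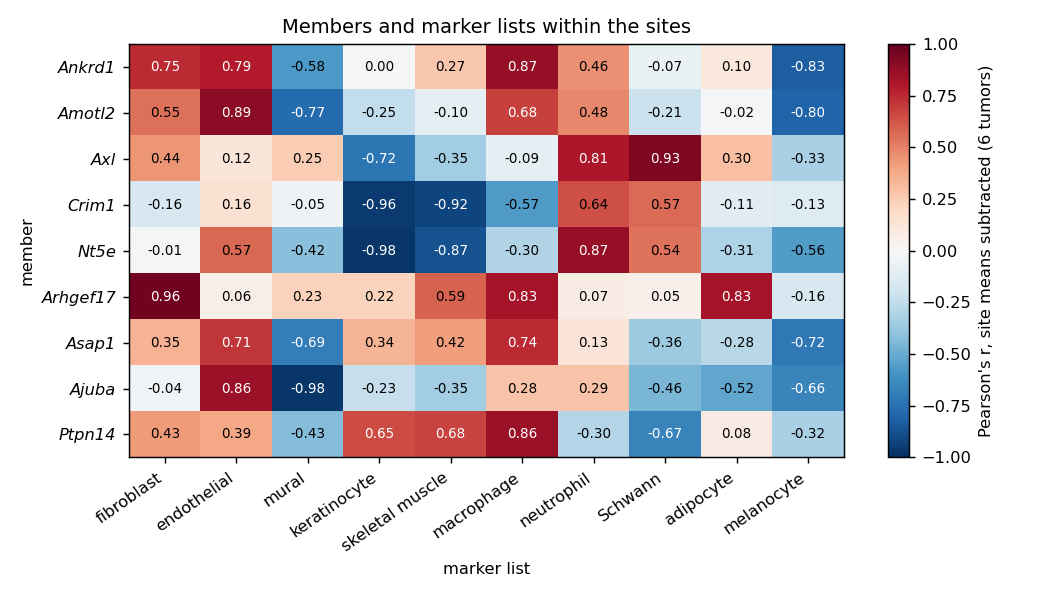
Pearson's r between each target (rows) and the score of each marker list (columns) over 6 tumors after subtraction of the site means, from -1 (blue) to 1 (red), as a description without a test. Arhgef17 has its highest value, 0.96, with fibroblast markers, and Ankrd1, Asap1 and Ptpn14 have theirs with macrophage markers.

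Other genes of the pathway gave a similar mixture. Of 14 further YAP/TAZ targets 13 were tested, with Foxf2 below the filter, and 1 was higher in footpad tumors, Myof, which encodes the membrane-repair protein myoferlin. It was at 204, 125 and 194 CPM in the footpad and at 72.4, 81.8 and 50.1 CPM in the flank (log2 fold change 1.36 ± 0.25 SE, edgeR adjusted p = 0.0321). The list had a median log2 fold change of 0.59 with 10 of 13 above 0. Of all genes tested, 49.7% were above 0 and 2.89% were called as higher in the footpad. The next smallest p-values were those of Ccdc80, a secreted matrix protein (log2 fold change 1.91, edgeR adjusted p = 0.0610), and Nuak2, a kinase with 1.79 ± 0.571 CPM in the footpad and 0.149 ± 0.134 CPM in the flank (SD, n = 3, edgeR adjusted p = 0.0713). The CCN family targets Ccn1 and Ccn2 had log2 fold changes of 1.13 and 1.22 and overlapping sites (adjusted p = 0.187 and 0.117 from edgeR).

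Of 22 Hippo pathway genes, 1 was higher by both thresholds, against 2.89% of all genes tested, and the median log2 fold change was 0.11. Tead4, a DNA-binding partner of YAP, was at 27.1, 18.1 and 21.7 CPM in the footpad and at 7.85, 9.82 and 9.38 CPM in the flank (log2 fold change 1.31 ± 0.20 SE, edgeR adjusted p = 0.0212). Tead2, its paralog, was lower in every footpad tumor, at 20.05, 22.5 and 19.9 CPM against 38.2, 38.8 and 42.1 CPM (log2 fold change -0.93 ± 0.13 SE, edgeR adjusted p = 0.0154), a change of less than 2-fold. Lats2, a kinase of the pathway and itself a target, had a log2 fold change of 0.51 (adjusted p = 0.129 from edgeR). Yap1 was at 105, 109 and 106 CPM in the footpad and at 111, 125 and 147 CPM in the flank, where every tumor lay above the footpad tumors (log2 fold change -0.26 ± 0.14 SE, edgeR adjusted p = 0.284). For Wwtr1, which encodes TAZ, the log2 fold change was -0.04 ± 0.16 (SE). Myof lost the call without footpad replicate 1 or 3 or flank replicate 1 or 3, with adjusted p from 0.0670 to 0.127 in edgeR. Tead4 lost it without footpad replicate 1 or 3 or flank replicate 3, with adjusted p from 0.0812 to 0.102.

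The genes most like each target over the 6 tumors, by Pearson's r of log2 CPM with no subtraction of the site means, so that the difference between sites enters it, among 13595 genes at a mean of 1 CPM or more, were named by 1 fixed rule. They were Myo1c for Arhgef17 (0.998), Tfpi2 for Ankrd1 (0.997), Arhgef40 for Nt5e (0.995), Tmtc2 for Amotl2 (0.994) and Wdr44 for Axl (0.993). For Asap1 it was LOC115487471 (0.998), for Ptpn14 Fam160a2 (0.996), for Crim1 Rnf135 (0.987) and for Ajuba Gm9825 (0.984). With 6 tumors, many genes reached such values: Arhgef17 had 301 genes above 0.95, Asap1 253, Ptpn14 180 and Ankrd1 172, whereas Crim1 had 10 and Ajuba 16.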

How the data were processed

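Per the paper's methods and the submitters' processing notes, the authors checked reads with FastQC 0.11.7, trimmed them with Trimmomatic and aligned them to mm10 with HISAT2 2.1.0. They deposited raw read counts per gene, and FPKM values that also take transcript length into account. What program counted the reads is not given in the sources used here. Dates in place of symbols in the count table were replaced by the symbols of the FPKM files, matched by gene identifier. Gene coordinates are those of RefSeq on GRCm38.p6. Counts on genes totalled between 46529649 and 66364366 reads per tumor. A count of 3 reads equalled 0.0438 to 0.0673 CPM, and the common coefficient of biological variation was 0.338. Tumors of 1 site differed by more than sampling noise (chi-square of 58.6 to 511 per gene).

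Counts were fitted in R 4.3.3 with edgeR 4.0.16 (TMM, filterByExpr, glmQLFit and glmQLFTest, site as the only term, Benjamini-Hochberg adjustment over 17210 genes). The standard error was taken as the log2 fold change over the square root of F. Log2 CPM used a prior count of 1. The labels do not tie tumors to mice, so p-values measure the spread between these tumors. Fits were tested on simulated data. Alternatives were DESeq2 1.42.0, limma 3.58.1 on log2(FPKM + 1) and log2(FPKM + 0.1), upper-quartile scaling, other filters on low counts (none, or 10 counts in every tumor), no fold threshold, the replicate number as a block, and leaving out each tumor. Tables were made in Python 3.11.15 with scipy 1.17.1. The targets, marker lists and tests were chosen with earlier results of these data known. Genes named outside the targets are Dcn and Pdgfra, the called genes or the 3 smallest p-values of each pathway list, and the nearest gene of each target. Yap1, Wwtr1, Ccn1, Ccn2 and single markers were named after their values were seen.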

Additional observations from a re-analysis of the deposited data

How the results depend on the processing

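The log2 fold change of 9 of 9 targets stayed above 0 in all 13 alternative fits, with a median over the targets from 0.35 with limma on log2(FPKM + 1), which compresses genes at low FPKM, to 0.73 without flank replicate 2. Of the 647 genes called over the whole table and the 1 target, 1 further YAP/TAZ target and 1 Hippo gene among them, the numbers were 1506, 2, 4 and 1 with DESeq2. With limma on log2(FPKM + 1) they were 366, 0, 1 and 1, since Arhgef17 kept an adjusted p of 0.0316 but a log2 fold change of 0.41. In that limma fit 4 targets had an unadjusted p under 0.05, as did 3737 genes over the whole table. A filter of 10 counts in every tumor gave 718 genes and 2 further targets, and limma on log2(FPKM + 0.1) gave 854 genes and 2 further targets, with 1 target and 1 Hippo gene in each. With no fold threshold 2 Hippo genes passed, Tead4 and Tead2. Leaving out 1 tumor at a time gave from 0 (without footpad replicate 3) to 836 genes over the whole table, from 0 to 2 targets, from 0 to 1 further targets and from 0 to 1 Hippo genes. Without footpad replicate 3, edgeR called 0 of the 9 targets. In that fit 2 targets had an unadjusted p under 0.05, as did 3289 genes over the whole table. The difference in the fibroblast score lay between 2.91 and 3.89 without single tumors and was 1.52 on log2(FPKM + 1). On that scale r with the score was above 0 for 9 of 9 targets, against 6 of 9 on log2 CPM. The share of all genes was not computed on either scale. FPKM were used as deposited, with no scaling between tumors, and their sums ran from 571015 in footpad replicate 2 to 738430.9 in flank replicate 1. The part of this in the rise to 9 of 9 was not tested.

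Tumors with the same replicate number did not deviate together from their site means (r of 0.0544, -0.0965 and -0.115 for numbers 1, 2 and 3). Pairs with different numbers gave r from -0.1995 to 0.2639. With 3 tumors per site, this check cannot tell whether tumors of the same number came from 1 mouse. With the replicate number as a block, edgeR called 0 genes over the whole table, 0 targets, 0 further targets and 0 Hippo genes, while 3551 genes and 3 targets had an unadjusted p under 0.05. The adjusted p of Arhgef17 was then 0.0888. Depth limited Ankrd1 most, at 10 reads in flank replicate 1.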
